A study of Mus musculus with 18 samples.

Results

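The genes Srf, Vcl, Filip1l, Flna, Tln1, Zyx, Fhl2, Actn1, Actb and Actg1 are described here across all 6 groups of the study. They were chosen by symbol, as serum response factor (SRF), genes tied to it or to its actin-sensing partners, the myocardin-related transcription factors (MRTF), and components of focal adhesions. They are 10 of the 55487 rows of the count table, and all 10 were among the 16432 genes with enough counts to be tested. The RNA came from primary mouse Leydig cell cultures; Leydig cells make testosterone in the testis. Every culture had been transfected, either with the control siRNA siNC or with siprdx1, an siRNA against peroxiredoxin 1, an enzyme that removes hydrogen peroxide (H2O2). In each siRNA arm 1 group had no H2O2, 1 had 200 µM H2O2 for 30 min, and 1 had the same H2O2 and afterwards 5 µM fluvastatin (FV) for 6 h, with 3 libraries a group. The groups without fluvastatin had 0.1% DMSO over those 6 h. The labels name no vehicle for the groups with fluvastatin, and no group had fluvastatin without H2O2, so fluvastatin and vehicle cannot be told apart, and each fluvastatin value is one after H2O2. The labels call the 3 libraries of a group biological replicates without naming animals, strain or age, so the p-values measure the spread between these libraries.

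SRF is a DNA-binding factor that recognises the CArG box, a short AT-rich element in the promoters of muscle, cytoskeletal and immediate early genes. MRTF proteins are held in the cytoplasm by unpolymerised actin and join SRF in the nucleus when monomers are used up by filament assembly. A second set of partners, the ternary complex factors (TCF: Elk1, Elk3 and Elk4), joins SRF downstream of MAP kinase signalling. Focal adhesions couple these filaments to integrins in the membrane: talin binds the integrin tail, vinculin and α-actinin link talin to actin, filamin crosslinks filaments, and zyxin and FHL2 are LIM-domain proteins found at adhesions and stress fibres. Statins block the mevalonate pathway, which also supplies the lipid anchors that hold many signalling proteins at membranes.

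The promoter windows are shown first because SRF is 1 of the 10 genes and several of the others are known as its targets. RefSeq windows of GRCm38.p6, from 250 bases before to 50 bases after a start site, were matched by symbol for 9 of the 10 genes, with 11 windows in all. They were searched on both strands for the CArG box, which is CC, then 6 bases that are each A or T, then GG. A box was found in 6 of the 11 windows and in 5 of the 9 genes, against 1.63% of all 32851 windows and 1.81% of all 27025 genes with a window. The stretches around the boxes are printed 5′ to 3′ on the gene's strand, in lower case with the box in capitals.
Srf (chr17:46556170-46556289, minus strand): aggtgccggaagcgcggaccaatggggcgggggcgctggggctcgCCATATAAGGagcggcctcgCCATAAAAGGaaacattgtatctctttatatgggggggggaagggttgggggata
Vcl (chr14:20929148-20929225, plus strand): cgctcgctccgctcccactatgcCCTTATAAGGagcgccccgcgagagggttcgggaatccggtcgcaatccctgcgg
Filip1l (chr16:57549135-57549234, plus strand): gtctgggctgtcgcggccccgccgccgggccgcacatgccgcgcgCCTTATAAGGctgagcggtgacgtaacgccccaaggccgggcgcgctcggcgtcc
Fhl2, first start site (chr1:43196838-43196867, minus strand): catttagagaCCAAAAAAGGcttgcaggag
Fhl2, second start site (chr1:43163962-43164037, minus strand): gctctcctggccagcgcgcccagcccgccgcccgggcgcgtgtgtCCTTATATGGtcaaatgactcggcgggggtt
Actg1 (chr11:120348531-120348630, minus strand): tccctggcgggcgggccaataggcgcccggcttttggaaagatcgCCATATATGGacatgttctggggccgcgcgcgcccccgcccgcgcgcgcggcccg
The Srf stretch holds 2 boxes, which begin 82 and 62 bases before its start site. Vcl and Filip1l share the same box sequence, CCTTATAAGG, at 227 and 62 bases before the start; the Filip1l box lies at the second of its 2 start sites and the window of the first holds none. The Fhl2 boxes begin 96 and 31 bases before their start sites, and that of Actg1 begins 90 bases before. The windows of Flna, Tln1, Zyx and Actn1 held no box, which says only that these letters are not in this window. A match is a description of the sequence and no binding was measured.

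**Figure D1:**
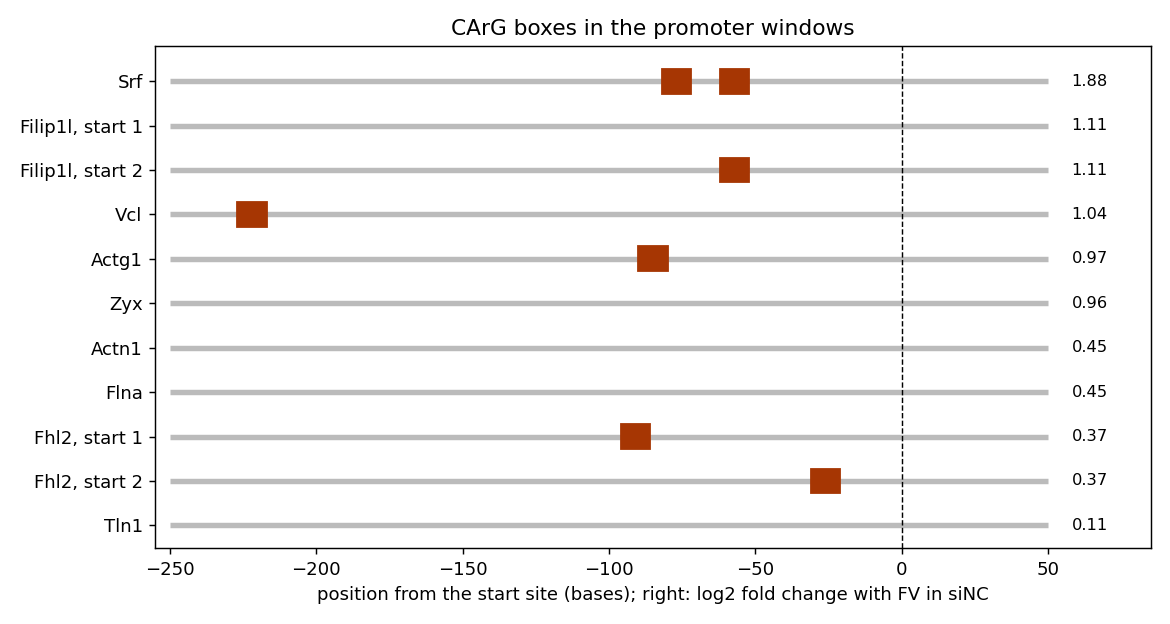
Promoter windows of 9 genes (grey lines, position in bases from the start site, which is the dashed line), with CArG boxes as filled blocks and, at the right, each gene's log2 fold change with fluvastatin after H2O2 in siNC cells, by which the rows are ordered. Boxes stand in the windows of Srf (1.88), Filip1l (1.11), Vcl (1.04), Actg1 (0.97) and Fhl2 (0.37), and none in those of Zyx (0.96), Actn1 (0.45), Flna (0.45) and Tln1 (0.11).

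The libraries held 15201530 to 23898435 counts, and the biological coefficient of variation over all genes was 7.01%. Prdx1 was lower in each siprdx1 library than in each siNC library, by -1.52 ± 0.06 on the log2 scale (SE) without H2O2, -1.64 ± 0.06 after H2O2 and -1.47 ± 0.06 after H2O2 and fluvastatin. The Leydig genes Cyp11a1 and Star averaged 712 and 286 CPM (counts divided by the TMM-scaled library size), but Cyp17a1 and Hsd17b3 did not exceed 0.106 and 0.250 CPM in any library, and macrophage and fibroblast genes were abundant. The label was thus met in part, and in bulk RNA fewer cells of a type and less RNA per cell cannot be told apart.

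The 10 genes differed widely in abundance. Per length, as RPKM averaged over the 18 libraries, Actb (β-actin) was highest at 1387, followed by Flna at 183, Fhl2 at 172, Actg1 (γ-actin) at 156, Actn1 at 91.7, Zyx at 84.4, Tln1 at 76.2, Vcl at 58.6, Srf at 34.1 and Filip1l at 11.4. Together they took 0.719% ± 0.014 (SD, n = 3) of all counts in siNC+H2O2 libraries and 1.06% ± 0.03 in siNC+H2O2+FV libraries. In the siprdx1 arm the shares were 0.695% ± 0.050 after H2O2 and 1.11% ± 0.06 with fluvastatin added. The ratio of the highest to the lowest group mean was 4.74 for Srf, 2.37 for Zyx, 2.36 for Actg1, 2.35 for Filip1l, 2.24 for Vcl, 1.98 for Actb, 1.56 for Fhl2, 1.45 for Actn1, 1.39 for Flna and 1.11 for Tln1.

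Fluvastatin after H2O2 went with higher levels of 9 of the 10 genes in both siRNA arms. Srf itself was 3.68-fold higher in siNC cells and 4.39-fold higher in siprdx1 cells, the next largest rises in siNC were those of Filip1l, Vcl, Actg1 and Zyx, and Flna, Actn1 and Fhl2 rose least. Tln1 did not pass in either arm. Over all genes tested, 13.5% passed as higher in siNC and 12.6% in siprdx1, and 11.3% and 11% as lower (edgeR quasi-likelihood test, Benjamini-Hochberg adjusted p below 0.05). The median log2 fold change of the 10 genes was 0.86 in siNC and 0.96 in siprdx1, where the median over all genes was -0.01 in both. For those 9 genes every fluvastatin library lay above every H2O2 library of its arm, as it did for 19.9% of all genes in siNC and 17.7% in siprdx1. The fluvastatin groups of the 2 arms overlapped with each other for Flna, Filip1l, Zyx, Actn1, Actb and Actg1, and stood above all 4 other groups for these genes.

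**Figure D2:**
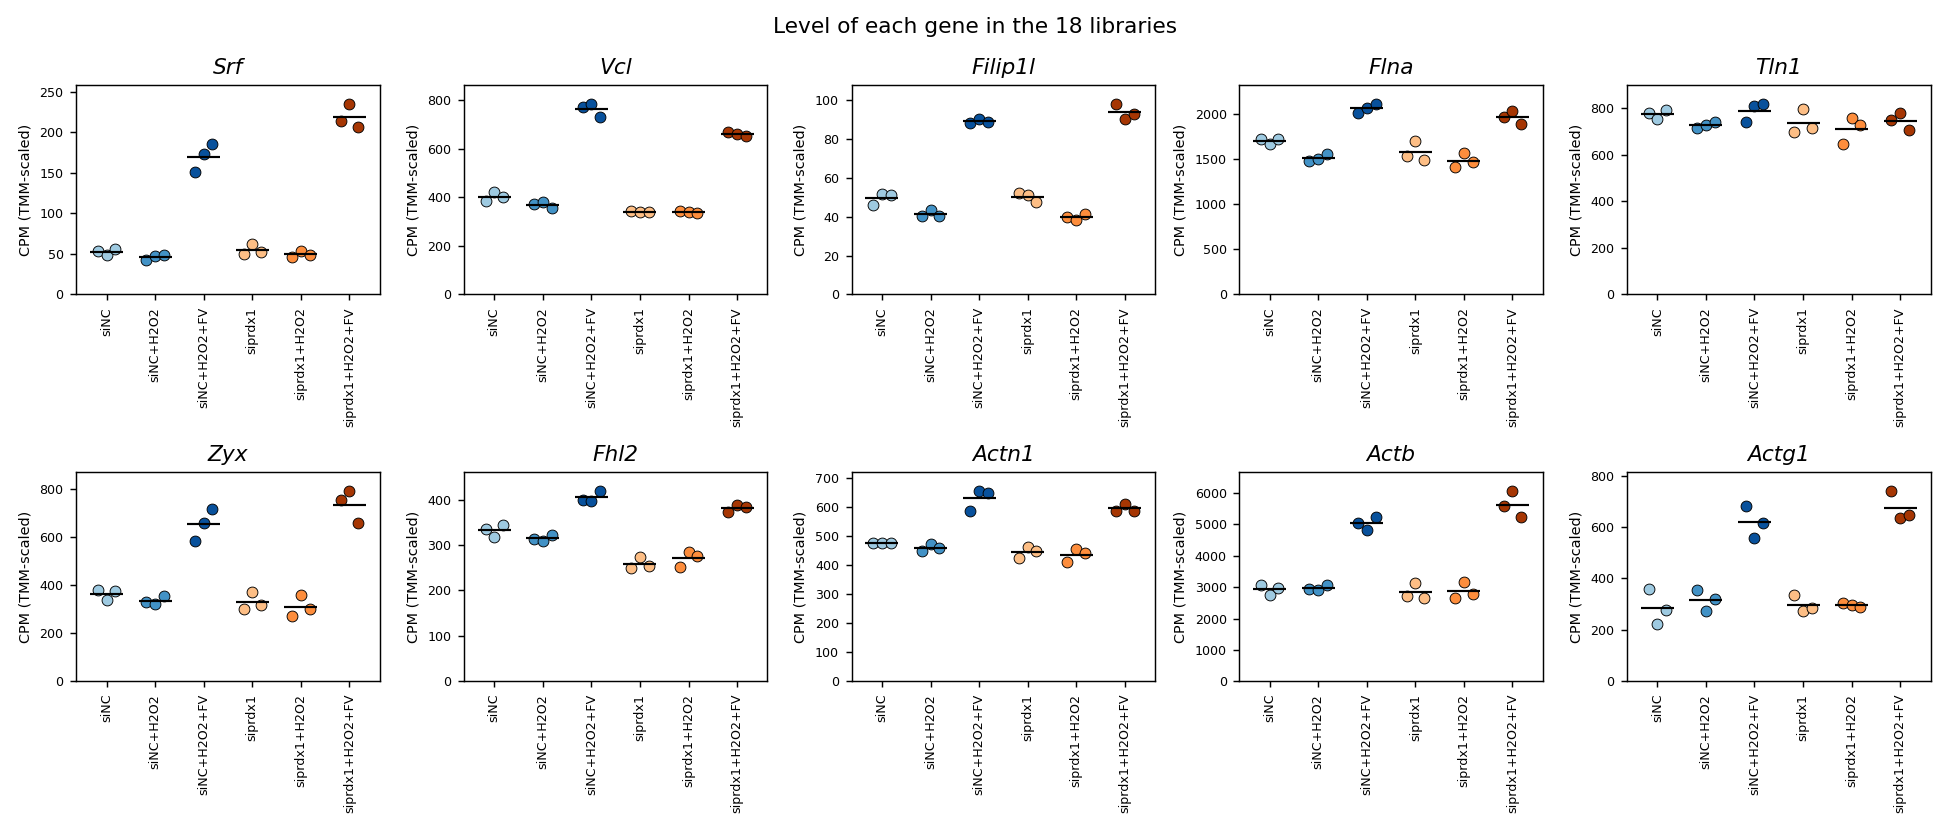
Level of each of the 10 genes (CPM, linear axes from 0) in the 18 libraries, with 1 point per library in replicate order and a line at the group mean (n = 3). In 9 panels the dark points of the fluvastatin groups stand above all others. In the panel of Tln1 the points lie between 645.5 and 816.7 CPM, and groups that are neighbours in order of their means overlap.

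Srf, the transcription factor, showed the largest change. In the siNC arm it stood at 53.4, 49.2 and 56.3 CPM without H2O2, 42.2, 46.9 and 49.1 CPM after H2O2 and 151, 173 and 186 CPM after H2O2 and fluvastatin. In the siprdx1 arm the values were 49.5, 62.0 and 52.2, then 45.9, 54.1 and 49.0, then 214, 235 and 206 CPM. Both fluvastatin groups lay apart from all 12 other libraries and from each other, and the remaining 4 groups overlapped with their neighbours in the order siprdx1, siNC, siprdx1+H2O2 and siNC+H2O2. The log2 fold change with fluvastatin was 1.88 ± 0.09 in siNC (edgeR adjusted p = 2.27e-13) and 2.13 ± 0.09 in siprdx1 (edgeR adjusted p = 1.48e-14), the 135th and 134th largest rise among 16432 genes. Against cells without H2O2 it was 1.68 ± 0.09 and 2.00 ± 0.09.

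Genes of the partners of SRF are given next. Of 7 cofactor genes tested, 2 rose and 2 fell with fluvastatin in siNC, and 2 rose and 3 fell in siprdx1. These are larger shares than the 13.5% higher and 11.3% lower of all genes in siNC and the 12.6% and 11% in siprdx1, but they rest on few genes. Mrtfa, which encodes the actin-binding coactivator, fell by 0.26 ± 0.08 in siNC and by 0.35 ± 0.08 in siprdx1 on the log2 scale (edgeR adjusted p = 0.0125 and 0.00124). Its relative Mrtfb gave -0.05 ± 0.06 in siNC, which did not pass, and fell by 0.17 ± 0.06 in siprdx1 (edgeR adjusted p = 0.047), a call lost without the filter on low counts and with only the groups compared. The ternary complex factors split, since Elk4 rose by 0.49 ± 0.07 and 0.62 ± 0.07 and Elk3 fell by 0.18 ± 0.06 and 0.17 ± 0.06. Elk3, too, was lost under those same settings. Srfbp1, an SRF-binding protein, rose by 0.45 ± 0.10 and 0.44 ± 0.10, while Elk1 and Myocd did not pass in either arm.

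Both cytoplasmic actins were higher with fluvastatin. Actb measured 3058, 2751 and 2976 CPM in siNC, 2948, 2918 and 3077 CPM in siNC+H2O2 and 5046, 4813 and 5250 CPM in siNC+H2O2+FV. In the siprdx1 arm it measured 2733, 3141 and 2656, then 2641, 3171 and 2783, then 5575, 6076 and 5248 CPM. No library without fluvastatin exceeded the lowest one with it, and the log2 fold changes were 0.76 ± 0.07 in siNC and 0.98 ± 0.07 in siprdx1 (edgeR adjusted p = 2.29e-08 and 2.45e-10). Actg1 measured 357, 223 and 277 CPM in siNC, 354, 274 and 321 CPM in siNC+H2O2 and 681, 559 and 614 CPM in siNC+H2O2+FV. Its siprdx1 values were 334, 273 and 286, then 304, 296 and 289.7, then 741, 635 and 648 CPM. Within groups its libraries were the most widely spread in siNC, and replicate 1 was its highest library in all 6 groups. The fluvastatin effect on Actg1 was 0.97 ± 0.14 in siNC and 1.19 ± 0.14 in siprdx1 (edgeR adjusted p = 7.15e-05 and 7.48e-06). Per length Actb exceeded Actg1 by 10.2 times in siNC, 9.35 times in siNC+H2O2 and 8.08 times in siNC+H2O2+FV, ratios that the copies of Actg1 described below can affect.

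Of the links between integrins and filaments, vinculin rose and talin did not pass. Vcl, whose product reinforces talin's hold on actin, measured 386, 422 and 403 CPM in siNC, 373, 380.3 and 358 CPM in siNC+H2O2 and 773, 785 and 732 CPM in siNC+H2O2+FV. In the siprdx1 arm it was 343, 340.3 and 338, then 345, 341 and 338, then 669, 660.1 and 654 CPM. The 2 fluvastatin groups were the highest and did not overlap with each other, the siNC one standing above. With fluvastatin Vcl rose by 1.04 ± 0.05 in siNC and 0.95 ± 0.05 in siprdx1 (edgeR adjusted p = 2.68e-14 and 9.72e-14). Tln1, which encodes the integrin-binding talin 1, measured 716, 728 and 741 CPM in siNC+H2O2 and 740.5, 809 and 817 CPM in siNC+H2O2+FV, with 1 library of the latter inside the range of the former. In siprdx1+H2O2 it measured 646, 756 and 726 CPM and in siprdx1+H2O2+FV 747, 779.7 and 707 CPM, which overlap. Without H2O2 Tln1 stood at 776, 752 and 792 CPM for siNC and 696, 794 and 715 CPM for siprdx1, so all neighbours in the order of its 6 groups overlapped. Its log2 fold changes of 0.11 ± 0.06 and 0.07 ± 0.06 did not pass (edgeR adjusted p = 0.185 and 0.468), with 95% intervals from -0.02 to 0.25 in siNC and from -0.06 to 0.20 in siprdx1.

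Zyx, a LIM-domain protein of adhesions and stress fibres, changed as much as Vcl but with a wider spread. It measured 332, 320.1 and 355 CPM in siNC+H2O2 and 583, 661 and 716 CPM in siNC+H2O2+FV, and 272, 359 and 302 against 757, 794 and 658 CPM in the siprdx1 arm. The lowest fluvastatin library was well above the highest without it in each arm. Without H2O2 Zyx stood at 379.6, 340.2 and 376 CPM with the control siRNA and 301, 371 and 317 CPM with siprdx1. The rise with fluvastatin was 0.96 ± 0.10 in siNC and 1.24 ± 0.10 in siprdx1 (edgeR adjusted p = 3.88e-07 and 8.26e-09).

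Filip1l, named for its product's likeness to a filamin A-interacting protein, is the least abundant of the 10 genes and changed tightly. It measured 45.9, 51.6 and 51.2 CPM in siNC, 40.3, 43.4 and 40.3 CPM in siNC+H2O2 and 88.0, 90.4 and 88.4 CPM in siNC+H2O2+FV. The siprdx1 arm gave 52.1, 51.0 and 47.3, then 39.9, 38.3 and 41.3, then 97.9, 89.9 and 92.8 CPM. In each arm its 3 groups did not overlap, with H2O2 lowest and fluvastatin highest. The fluvastatin effect was 1.11 ± 0.06 in siNC and 1.23 ± 0.06 in siprdx1 (edgeR adjusted p = 1.82e-12 and 1.78e-13).

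The crosslinkers and FHL2 moved by smaller steps. Flna, the filamin that joins filaments at angles, went from 1481, 1507 and 1555 CPM in siNC+H2O2 to 2014, 2067 and 2115 CPM in siNC+H2O2+FV, and from 1413, 1569 and 1473 to 1970, 2035 and 1892 CPM in the siprdx1 arm. Actn1, which encodes the bundling protein α-actinin 1, went from 449.9, 473 and 459 to 586, 657 and 649 CPM in the siNC arm and from 412, 456 and 440.7 to 587, 611 and 587 CPM in siprdx1. For both genes the groups with and without fluvastatin did not overlap within an arm. The log2 fold changes were 0.45 ± 0.05 and 0.40 ± 0.05 for Flna and 0.45 ± 0.05 and 0.45 ± 0.05 for Actn1 (edgeR adjusted p at most 2.71e-06). Fhl2, whose product binds both adhesion proteins and transcription factors, measured 313, 308 and 322 against 399, 396 and 419 CPM in the siNC arm and 252, 284 and 276 against 373, 389 and 383 CPM in siprdx1. It rose by 0.37 ± 0.05 and 0.50 ± 0.05 (edgeR adjusted p = 1.19e-05 and 1.12e-07), and its 2 fluvastatin groups also lay apart, siNC above.

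**Figure D3:**
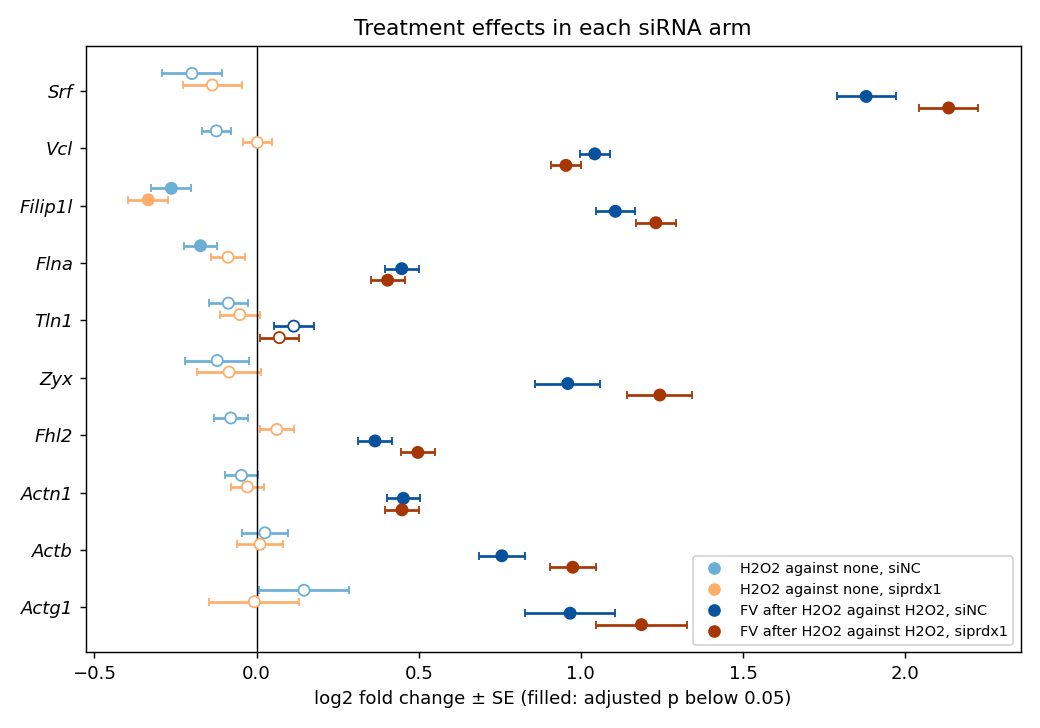
Log2 fold change with its standard error (edgeR, n = 3 libraries a group) for the H2O2 effect (pale) and the fluvastatin effect after H2O2 (dark) in siNC (blue) and siprdx1 (orange) cells, filled where the adjusted p was below 0.05. The fluvastatin points of 9 genes lie between 0.37 and 2.13 and those of Tln1 at 0.11 and 0.07, while the H2O2 points lie between -0.33 and 0.15.

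The H2O2 and fluvastatin effects share the H2O2 libraries, so they are given side by side and not compared. Against cells without H2O2, in a contrast that shares the fluvastatin libraries with the one above, 9 of 10 were higher in siNC, where 11.3% of all genes were, and 9 of 10 in siprdx1, where 12.7% were. The values ran from 0.28 ± 0.05 (Flna) to 1.68 ± 0.09 (Srf) in siNC and from 0.32 ± 0.05 to 2.00 ± 0.09 for the same genes in siprdx1. Tln1 gave 0.03 ± 0.06 and 0.02 ± 0.06 and did not pass.

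H2O2 alone, followed by DMSO, went with few and small differences. In siNC cells Filip1l fell by 0.26 ± 0.06 and Flna by 0.17 ± 0.05 on the log2 scale (edgeR adjusted p = 0.0103 and 0.048), 2 of the 10 genes where 4.59% of all genes were lower, and none was higher where 2.36% were. At an unadjusted p below 0.05, 4 were lower and 0 higher, and DESeq2 also called 2 lower and 0 higher. For 6 of the 10 genes each H2O2 library lay below each siNC library, as for 14.4% of all genes. The Flna libraries were at 1725, 1670 and 1725 CPM in siNC, above the 3 H2O2 libraries given above. The Flna call was lost on leaving out any 1 of the 6 libraries, with values of -0.19 to -0.16. That of Filip1l was lost without siNC replicate 2 or 3 or siNC+H2O2 replicate 1 or 3, with values of -0.25 to -0.23. In siprdx1 cells only Filip1l passed, with a fall of 0.33 ± 0.06 (edgeR adjusted p = 0.00105), where 5.39% of all genes were lower, and none was higher where 2.48% were (edgeR; 0 higher and 1 lower at an unadjusted p below 0.05, and 1 lower by DESeq2). It passed under each omission. Srf gave -0.20 ± 0.09 in siNC and -0.14 ± 0.09 in siprdx1, which did not pass. No H2O2 effect of the 10 genes was shown to differ between the arms (edgeR interaction, 0 of 10, with 0 at an unadjusted p below 0.05 and 0 by DESeq2, where 0.243% of all genes passed).

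Prdx1 knockdown went with lower Fhl2 and Vcl. Without H2O2 Fhl2 stood at 336, 317 and 343 CPM with the control siRNA and 249.5, 273 and 254 CPM with siprdx1, and Vcl at 386, 422 and 403 and 343, 340.3 and 338 CPM. The groups did not overlap for either gene, nor for Actn1, which was also lower in siprdx1 but did not pass. For 8.19% of all genes the siprdx1 libraries lay wholly below. Fhl2 fell by 0.36 ± 0.05 and Vcl by 0.24 ± 0.05 on the log2 scale (edgeR adjusted p = 0.000242 and 0.00285), 2 of 10 genes where 1.67% of all genes were lower, and both passed under each of 6 omissions of 1 library. Fitted on the 6 libraries alone, Vcl did not pass (edgeR adjusted p = 0.0526). After H2O2 Fhl2 fell by 0.22 ± 0.05 (edgeR adjusted p = 0.0236), where 1.83% of all genes were lower. That call was lost in 5 of 6 omissions, all but that of siprdx1+H2O2 replicate 2, with values of -0.23 to -0.17, and with only those 6 libraries fitted (edgeR adjusted p = 0.124). Vcl gave -0.12 ± 0.05 there and did not pass.

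Markers of Leydig and other cells also differed with knockdown, some sums being lower and some higher in siprdx1. Without H2O2 the fibroblast markers summed to 17886 to 18934 CPM in siNC and 15077 to 15827 CPM in siprdx1 (3 of 7 fell). The smooth muscle or peritubular myoid markers summed to 1301 to 1477 and 1095 to 1202 CPM (3 of 8 fell), and the endothelial markers to 96.0 to 104 and 76.6 to 87.8 CPM (1 of 5 fell). None of these sums overlapped between the arms. The Leydig sums were 1137 to 1179 and 1070 to 1086 CPM. Sertoli sums went the other way, at 63.8 to 69.8 and 71.2 to 76.4 CPM. The macrophage sums overlapped, at 8155 to 9028 and 7950 to 8195 CPM. After H2O2 the fibroblast sums were 19003 to 19702 and 17328 to 18600 CPM (2 of 7 rose and 2 fell), and the macrophage sums 9378 to 10060 and 8257 to 8485 CPM (1 of 11 fell). The smooth muscle sums were 1320 to 1407 and 1095 to 1247 CPM, and the Leydig sums 1181 to 1196 and 999.8 to 1063 CPM. Sertoli sums were again higher in siprdx1, at 66.1 to 69.6 and 80.2 to 87.3 CPM. After H2O2 and fluvastatin the fibroblast sums were 18340 to 19047 and 15860 to 16526 CPM (3 of 7 fell), and the smooth muscle sums 2313 to 2474 and 1991 to 2232 CPM (0 of 8 passed by edgeR, 1 higher and 3 lower at an unadjusted p below 0.05). The endothelial sums there were 96.6 to 98.2 and 81.8 to 83.6 CPM, and the Leydig sums 1456 to 1508 and 1348 to 1357 CPM. Macrophage sums were higher in siprdx1, at 8227 to 8330 and 8562 to 8990 CPM. So were the Sertoli sums, at 79.7 to 85.6 and 87.2 to 95.8 CPM. The part of these cells in the knockdown results was not tested.

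After H2O2 and fluvastatin Srf was higher and Vcl lower in siprdx1 than in siNC cells. Srf rose by 0.36 ± 0.09 (edgeR adjusted p = 0.0153), 1 of 10 genes where 1.62% of all genes were higher, and Vcl fell by 0.21 ± 0.05 (edgeR adjusted p = 0.00805), where 2.35% were lower. The Srf call was lost without siNC+H2O2+FV replicate 1 (0.28, edgeR adjusted p = 0.112) or 2 (0.38, 0.0552) or siprdx1+H2O2+FV replicate 2 (0.31, 0.0987). The Vcl call was lost without siNC+H2O2+FV replicate 2 (-0.19, 0.0655). Averaged over the 3 treatments Fhl2 fell by 0.22 ± 0.03 and Vcl by 0.19 ± 0.03, where 5.46% of all genes were lower, and Srf rose by 0.17 ± 0.05 (edgeR adjusted p = 0.0373), where 3.93% were higher. The averaged Srf call was lost in 11 of 18 omissions, with values of 0.14 to 0.18 there. The other 7 genes did not pass in the average.

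**Figure D4:**
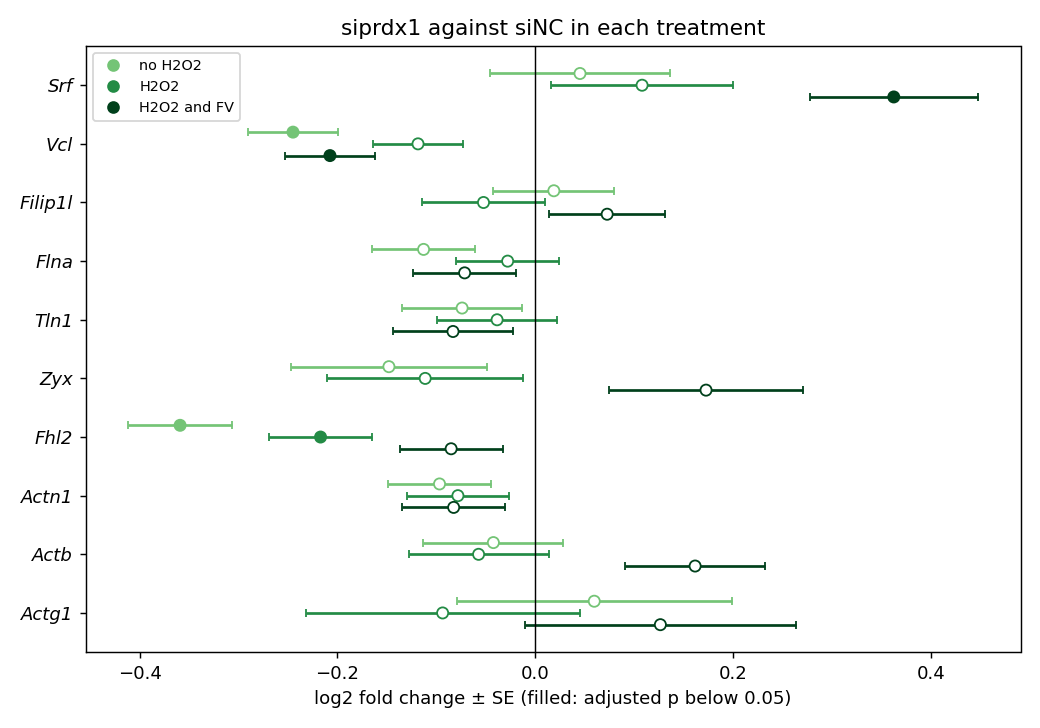
Log2 fold change of siprdx1 against siNC with its standard error (edgeR, n = 3 libraries a group) without H2O2, after H2O2 and after H2O2 and fluvastatin, filled where the adjusted p was below 0.05. Fhl2 passed without H2O2 (-0.36) and after H2O2 (-0.22), Vcl without H2O2 (-0.24) and after H2O2 and fluvastatin (-0.21), and Srf after H2O2 and fluvastatin (0.36).

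The fluvastatin effect itself was not shown to differ between the arms for any of the 10 genes. The edgeR interaction passed for 0 of 10, with 1 at an unadjusted p below 0.05 and 0 by DESeq2, where 0.651% of all genes passed. The values farthest from 0 were 0.28 ± 0.14 for Zyx, 0.25 ± 0.13 for Srf, 0.22 ± 0.20 for Actg1 and 0.22 ± 0.10 for Actb, all higher in siprdx1 (edgeR adjusted p = 0.406, 0.403, 0.673 and 0.36). The 95% intervals ran from -0.02 to 0.53 for Srf and from -0.02 to 0.59 for Zyx. That of Actb, the gene at an unadjusted p below 0.05, ran from 0.0009 to 0.44. In the siprdx1 arm replicate 2 was the highest library of all 3 groups for 7 of the 10 genes, Srf, Flna, Tln1, Zyx, Fhl2, Actn1 and Actb. Replicate 1 was so for 2, Vcl and Actg1. The siNC arm had a like pattern, with replicate 3 highest in all 3 groups for 4 genes, replicate 2 for 3 and replicate 1 for 1. All 9 genes still passed as higher with fluvastatin in siprdx1 when any 1 of the 6 libraries was left out, replicate 2 of either group included.

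The rest of the pathway was read from 7 lists of genes, by their counts. With fluvastatin 13.5% of all genes were higher and 11.3% lower in siNC, and 12.6% and 11% in siprdx1. Of 21 MRTF-branch SRF targets 19 rose and 0 fell with fluvastatin in each arm, with medians of 0.72 in siNC and 0.78 in siprdx1. The 4 most abundant were Cald1 (caldesmon; 0.21 ± 0.06 in siNC and -0.02 ± 0.06 in siprdx1, where it did not pass), Ccn2 (a secreted matricellular protein; 0.83 ± 0.05 and 0.89 ± 0.05), Tpm1 (tropomyosin 1; 0.90 ± 0.05 and 0.99 ± 0.05) and Ccn1 (a relative of Ccn2; 0.86 ± 0.06 and 1.16 ± 0.06). Cald1 in siNC was lost with library size alone. Of 10 TCF-branch targets, which are mostly immediate early genes, 8 rose and 1 fell in siNC and 10 rose in siprdx1. Here Egr1 rose by 0.80 ± 0.06 and 1.64 ± 0.06, Nr4a1 by 4.59 ± 0.08 and 5.65 ± 0.08, Junb by 0.86 ± 0.09 and 1.47 ± 0.09, and Mcl1, which encodes an anti-apoptotic protein, by 0.37 ± 0.08 and 0.43 ± 0.08.

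H2O2 alone is given for both branches side by side. Of the TCF-branch genes 7 of 10 rose with H2O2 in siNC and 5 of 10 in siprdx1, with Egr1 at 2.32 ± 0.06 and 1.63 ± 0.06 and Junb at 2.14 ± 0.09 and 1.69 ± 0.09. Of the MRTF-branch genes 2 of 21 rose and 1 fell in each arm. Over all genes 2.36% were higher and 4.59% lower in siNC, and 2.48% and 5.39% in siprdx1, so the single MRTF-branch gene that fell is near the share over all genes. The difference between the branches was not tested. After H2O2, knockdown went with lower TCF-branch genes in 7 of 10 cases and with lower MRTF-branch genes in 2 of 21, where 1.83% of all genes were lower. Without H2O2 the counts were 0 of 10 (edgeR; 2 lower at an unadjusted p below 0.05) and 6 of 21, where 1.67% of all genes were lower.

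Adhesion components beyond the 10 genes come next. Of 25 other focal adhesion genes tested of 26 listed, 8 rose and 2 fell with fluvastatin in siNC and 5 rose and 3 fell in siprdx1, with medians of 0.10 and 0.02. Beside the 13.5% higher and 11.3% lower of all genes in siNC and the 12.6% and 11% in siprdx1, the falls were near the share over all genes. Its most abundant members, the tensins Tns1 (0.01 ± 0.06 in siNC, -0.06 ± 0.06 in siprdx1) and Tns3 (0.02 ± 0.05, -0.11 ± 0.05), the parvin Parva (0.11 ± 0.05, -0.09 ± 0.05) and the vinexin gene Sorbs3 (-0.06 ± 0.08, 0.13 ± 0.08), did not pass in either arm. Of 15 integrin genes tested of 16 listed, 5 rose and 1 fell in siNC and 2 rose and 1 fell in siprdx1. The rises in siprdx1 were near the share over all genes, and the falls in each arm were not above it. Itga5, which encodes the α subunit of the fibronectin receptor and also stands in the MRTF-branch list, rose by 1.99 ± 0.05 and 2.22 ± 0.05, and its partner Itgb1 by 0.43 ± 0.08 and 0.24 ± 0.08. Itga1 and Itgav, the other abundant integrins, rose by 0.26 ± 0.08 and 0.33 ± 0.09 in siNC and gave -0.16 ± 0.08 and 0.04 ± 0.09 in siprdx1, which did not pass. The rises of Itga1 and Itgav in siNC and of Itgb1 in siprdx1 were lost with library size alone.

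Relatives of the 10 genes in the same protein families were compared next. Their counts stand beside 13.5% of all genes higher and 11.3% lower with fluvastatin in siNC. In siprdx1 the shares were 12.6% and 11%, and the single paralogue that fell is not above the latter. Of 15 paralogues tested of 17 listed, 7 rose in siNC and 7 rose and 1 fell in siprdx1. These include Acta1, the skeletal muscle actin, which did not exceed 1.08 CPM in any library and whose fold is not given. Acta2, the smooth muscle actin, rose by 1.02 ± 0.07 and 1.11 ± 0.07, Actg2, the enteric smooth muscle actin, by 0.64 ± 0.13 and 1.00 ± 0.13, and the muscle filamin Flnc by 1.39 ± 0.10 and 1.31 ± 0.10. Actn4, the second non-muscle α-actinin, rose by 0.25 ± 0.07 and 0.26 ± 0.07, and was lost in both arms with library size alone. Tln2, the second talin, gave 0.04 ± 0.07 and -0.02 ± 0.07 and, like Tln1, did not pass. Of the zyxin family, Lpp rose by 0.27 ± 0.07 in siNC, a call lost with library size alone, and gave -0.10 ± 0.07 in siprdx1, and Trip6 gave 0.20 ± 0.10 in siNC and rose by 0.44 ± 0.10 in siprdx1. Ajuba gave -0.19 ± 0.07 in siNC and fell by 0.21 ± 0.07 in siprdx1, and Limd1 did not pass (-0.11 ± 0.06 and -0.07 ± 0.05). Of the FHL family Fhl3 rose by 0.41 ± 0.09 and 0.73 ± 0.09, and Fhl1 did not pass (0.12 ± 0.07 and 0.10 ± 0.07). The muscle α-actinins Actn2 and Actn3 and the Filip1l relative Filip1 did not exceed 2.36, 1.58 and 0.938 CPM and did not pass.

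Genes of filament assembly and turnover were read last. Of 20 genes of actin monomer binding and filament turnover, 5 rose and 0 fell in siNC and 6 rose and 1 fell in siprdx1. Among all genes 13.5% rose and 11.3% fell in siNC, and 12.6% and 11% in siprdx1, so the single fall is not above that share. Cfl1, which encodes the severing protein cofilin, rose by 0.20 ± 0.05 and 0.42 ± 0.05, Tmsb4x, a monomer-sequestering thymosin, gave -0.03 ± 0.05 and rose by 0.22 ± 0.05, and Gsn (gelsolin; -0.13 ± 0.07 and 0.00 ± 0.07) and Arpc1b (an Arp2/3 subunit; -0.02 ± 0.10 and 0.17 ± 0.10) did not pass. Scaling by library size alone shifted the median of all genes to -0.11 in both fluvastatin contrasts and moved the counts of these smaller effects, so changes are given relative to the TMM scale. On library size alone other focal adhesion genes counted 6 higher and 7 lower in siNC and 4 and 6 in siprdx1. Paralogues counted 5 and 2, then 6 and 4, integrins 2 and 2, then 1 and 3, and turnover genes 3 and 3, then 5 and 1. On that scale the rises of Cfl1 in siNC and of Tmsb4x in siprdx1 were also lost, and Gsn in siNC and Tns1, Tns3, Parva, Itga1 and Lpp in siprdx1 passed as lower. Parva passed as higher in siNC by DESeq2. MRTF-branch targets counted 17 and 0, then 19 and 0. The 9 of 10 genes held in both arms.

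**Figure D5:**
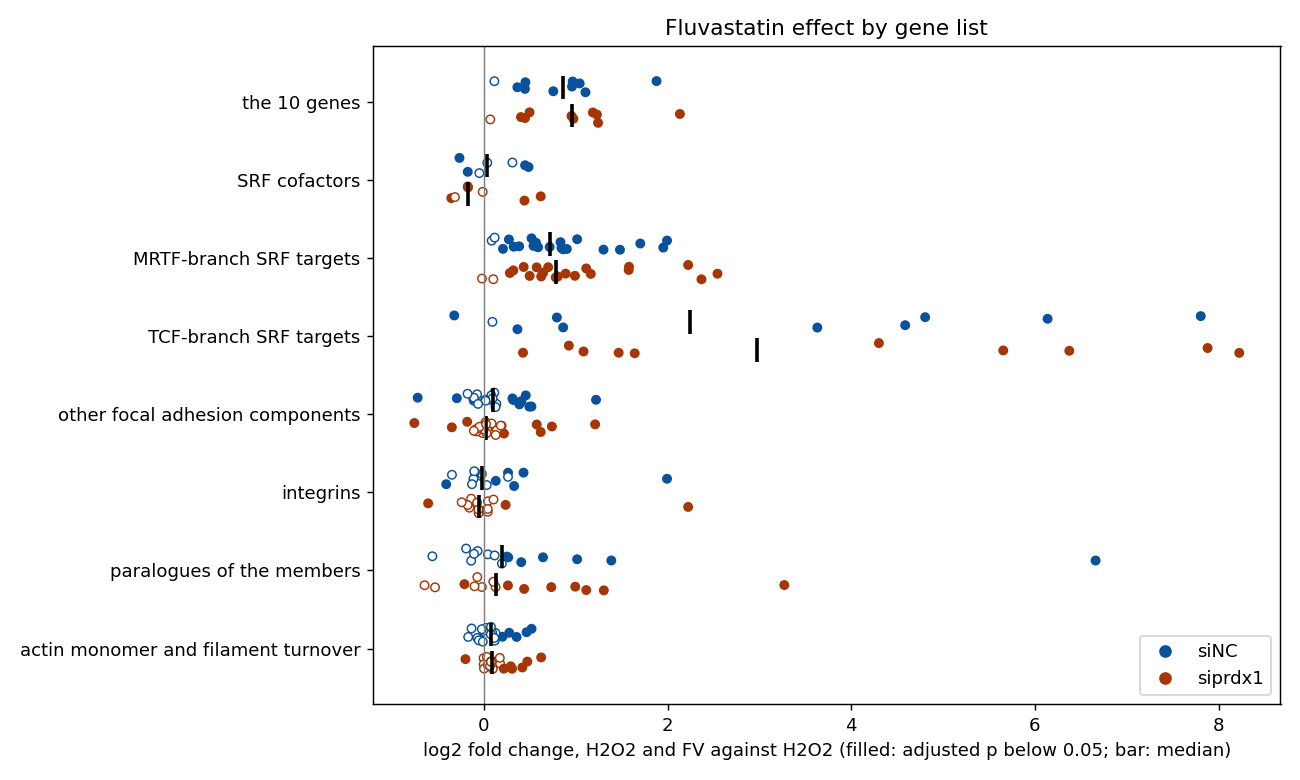
Log2 fold change with fluvastatin after H2O2 for the 10 genes and for 7 lists (1 point per tested gene, siNC in blue and siprdx1 in dark orange, filled where the adjusted p was below 0.05, black bars at the medians). The medians of the 10 genes are 0.86 and 0.96 and those of MRTF-branch targets 0.72 and 0.78; the lists share some genes, and the far point among the paralogues in each arm is Acta1, whose fold rests on the prior count.

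Markers of other cell types moved with the fluvastatin groups in part. Over all genes 13.5% rose and 11.3% fell in siNC, and 12.6% rose and 11% fell in siprdx1. A single call in lists this short is thus not set apart from the share over all genes. The summed level of the 8 smooth muscle or peritubular myoid markers was 1320 to 1407 CPM in siNC+H2O2 and 2313 to 2474 CPM in siNC+H2O2+FV, and 1095 to 1247 against 1991 to 2232 CPM in the siprdx1 arm. Of the 8 markers 6 rose in siNC and 6 rose and 1 fell in siprdx1, but Acta2, Tagln and Cnn1 are themselves on the MRTF-branch list. Myh11, a smooth muscle myosin that is not, rose by 0.30 ± 0.09 and 0.31 ± 0.09 from a low level, and Des gave -0.08 ± 0.13 and 0.01 ± 0.12. Actg2, also a marker off that list, rose more than Myh11 in both arms, by the values given above for the paralogues. Macrophage markers (11 tested of 11) summed to 9378 to 10060 CPM in siNC+H2O2 and 8227 to 8330 CPM with fluvastatin, and to 8257 to 8485 and 8562 to 8990 CPM in siprdx1, a lower sum in siNC (6 of 11 fell) and a higher one in siprdx1 (1 of 11 rose). Fibroblast markers (7 tested of 8) summed to 19003 to 19702 CPM and 18340 to 19047 CPM in siNC, and to 17328 to 18600 and 15860 to 16526 CPM in siprdx1. Of 5 endothelial markers tested 0 passed in siNC (0 at an unadjusted p below 0.05 in edgeR), and 1 rose and 1 fell in siprdx1; of 5 Sertoli cell markers tested 1 rose and 1 fell in siNC and 2 rose and 2 fell in siprdx1. No germ cell marker of 6 had enough counts to be tested. Of 7 Leydig markers tested of 9 listed, 1 rose and 3 fell in siNC and 2 rose and 1 fell in siprdx1. Their summed level was 1181 to 1196 CPM in siNC+H2O2 and 1456 to 1508 CPM with fluvastatin, and 999.8 to 1063 against 1348 to 1357 CPM in siprdx1, so the sum was higher although fewer markers rose than fell in siNC. The part of these cells in the results was not tested.

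Across the 18 libraries the 10 genes went up and down together, and the libraries share their treatments. Pearson's r of log2 CPM over the 45 pairs had a median of 0.917 and ran from 0.223 (Tln1 and Actg1) to 0.987 (Zyx and Actb). With group means removed the median fell to 0.154, with a range of -0.598 to 0.934. Over the 18 libraries the genes most like Srf among 9950 compared were B4galt5 (r = 0.994), Irf2bpl, Ctdp1, Sik1 and Kdm6b. Those most like Vcl were Abhd2 (0.995), Skil, Star and Heyl, and those most like Actb were Tubb6 (0.994), Gm12715, Ehd1, Osgin1 and Ywhag. These values carry no test.

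Several of the counts carry a limit from the genome. Actg1 has near-identical copies, of which Gm12715 (99.6% identity over 1128 bp) held 8.01% as many counts as Actg1 and rose with fluvastatin by 0.96 ± 0.11 in siNC and 1.21 ± 0.11 in siprdx1, so the share of reads each received is uncertain. Actb and Actg1 are 91.1% identical over 337 bp of transcript. Exons of Vcl overlap those of the antisense gene Ap3m1 over 2090 bp, and whether the counting used strand is not given in the sources used here, so their reads may not be fully separated. Ap3m1 itself gave 0.12 ± 0.09 with fluvastatin in siNC and 0.04 ± 0.09 in siprdx1, which did not pass. Tln1, Zyx and Actn1 overlap antisense genes over 360, 236 and 363 bp.

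In GRCm38 the 10 genes stand apart from one another. Srf (ENSMUSG00000015605) lies at chr17:46548329-46556175 on the minus strand, Vcl at chr14:20929398-21033676 on the plus strand, Filip1l at chr16:57353093-57573126 on the plus strand and Fhl2 at chr1:43123074-43196984 on the minus strand. Flna is at chrX:74223461-74249820 and Tln1 at chr4:43531519-43562691, both on the minus strand, and Zyx is at chr6:42349630-42360213 on the plus strand. Actn1 (chr12:80167547-80260371), Actb (chr5:142903115-142906754) and Actg1 (chr11:120345690-120348542) are on the minus strand. The CArG stretches printed above end before the RefSeq start sites. By the gene spans given here, though, the stretches of Fhl2, at each start site, and of Filip1l lie inside the gene. Those of Srf and Actg1 overlap the edge of the span, and that of Vcl lies outside it. The values of all 10 genes are counts over their exons as the authors assigned them.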

How the data were processed

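Poly(A) RNA of 18 libraries (6 groups of 3) was sequenced as paired-end reads with a TruSeq stranded kit (per the labels' protocols). Raw counts were deposited by the authors, per gene, for 55487 Ensembl gene IDs; HISAT2, HTSeq and the mouse build mm10 stand in the submitters' processing notes, and their versions, the annotation and the strand setting are not given in the sources used here. Library totals were 15201530 to 23898435 counts. The 16432 genes that passed edgeR's expression filter were scaled by TMM and fitted with edgeR 4.0.16 (robust quasi-likelihood test, limma 3.58.1, R 4.3.3) as 6 group means, with 12 residual degrees of freedom and Benjamini-Hochberg adjustment over all 16432 genes. CPM were computed on the TMM scale with no pseudocount, RPKM by exonic length in GENCODE vM21 (55141 IDs matched), and log CPM for correlations with a prior count of 2. An adjusted p below 0.05 was called, and folds without a unit are log2 fold changes ± SE from edgeR. Intervals are at 95%, from the SE and a t distribution with 12 degrees of freedom. The test used more degrees of freedom, so the intervals are somewhat wider than the test implies. Near-identical copies were sought with blastn.

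All 10 genes were named, with Prdx1 as the target, all SRF cofactors and paralogues, the 4 members of each other list with the highest mean CPM, and the 5 genes most alike to Srf, Vcl and Actb among genes of at least 10 CPM. Ap3m1, Gm12715, Des, Tagln, Cnn1 and the markers Cyp17a1 and Hsd17b3 were named after their values were seen where this rule did not include them. The members and lists were chosen with earlier results of these data known. Replicates of a group differed by more than sampling noise in every pair, with a chi-square per degree of freedom of 2.64 to 16.1. Alternatives were DESeq2 1.42.0, its size factors, library size alone, no low-count filter, only the groups compared, a replicate block and the omission of each library. The deviations of same-numbered libraries correlated above 0.1 in all 3 pairs for H2O2 in siNC (r = 0.135, 0.135 and 0.118); in the other comparisons at least 1 pair was at or below 0.1, though all 3 were above 0 for fluvastatin in siNC and for H2O2 with fluvastatin in both arms; the pairing comes from the data, not the labels. The edgeR fit was tested on simulated data. Some genes and 1 gene list are not reported here.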

Additional observations from a re-analysis of the deposited data

Results flagged for a closer look

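Of the genes named, 3 immediate early targets of the TCF branch responded differently in the siRNA arms by the edgeR interaction test. Egr1, which encodes a zinc finger transcription factor, averaged 135 CPM in siNC, 675 CPM in siNC+H2O2 and 1171 CPM in siNC+H2O2+FV, and 124, 381 and 1191 CPM in the matching siprdx1 groups. Its H2O2 effect was lower in siprdx1 by -0.69 ± 0.08 on the log2 scale (edgeR adjusted p = 4.81e-05) and its fluvastatin effect higher by 0.85 ± 0.08 (edgeR adjusted p = 7.57e-07). Nr4a1, an orphan nuclear receptor, averaged 21.2, 45.6 and 1097 CPM in those siNC groups, and the siprdx1 groups averaged 22.4, 24.3 and 1225 CPM. Its interactions were -0.996 ± 0.11 for H2O2 (edgeR adjusted p = 1.83e-05) and 1.07 ± 0.10 for fluvastatin (edgeR adjusted p = 4.96e-07). Junb, a subunit of AP-1, averaged 43.9, 194 and 353 CPM in the siNC arm, against 47.2, 153 and 423 CPM with siprdx1, and its fluvastatin interaction was 0.60 ± 0.12 (edgeR adjusted p = 0.0166). The H2O2 libraries enter both interactions of a gene, so the 2 values are not independent. None of the 10 genes was marked in this way.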

How the results depend on the processing

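Scaling with DESeq2's size factors left all 120 values of the 10 genes (10 genes in 12 comparisons) with their direction and call. The 9 rises with fluvastatin in each arm were called under all settings run and under each omission of 1 library. Over all genes, library size alone changed the fluvastatin split from 2226 higher and 1864 lower to 1474 and 3835 in siNC, and from 2066 and 1810 to 1463 and 3634 in siprdx1, with the median of all genes moving from -0.01 to -0.11 in both. With only the groups compared, knockdown without H2O2 called 1 gene lower and knockdown after H2O2 called 0 (edgeR; the group means were then fitted on fewer libraries). Without the filter on low counts, knockdown after H2O2 and fluvastatin called 2 genes higher, Actb joining Srf. The averaged knockdown effect on Actn1, -0.09, passed with the replicate block (edgeR adjusted p = 0.0258) and in DESeq2 (0.0449). The replicate block changed no other call among the 10 genes and moved the counts over all genes by less than 1.5 times, for example H2O2 in siNC from 387 higher and 755 lower to 530 and 818. Libraries correlated best with their own replicate number in 6 of 6 cases for the siNC treatment contrasts, in 4, 4 and 5 of 6 for those of siprdx1 and in 1, 3 and 2 of 6 for knockdown, a hint from the data. Values near 0 changed sign in few cases, none of them past the threshold on either side. With library size alone these were Vcl -0.035 and Actb -0.027 for H2O2 in siprdx1, Elk1 -0.066, Tns1 -0.089 and Tns3 -0.084 for fluvastatin in siNC, Tln1 -0.032 and Itgav -0.059 for fluvastatin in siprdx1, Tln1 -0.092 and -0.12 for H2O2 with fluvastatin in siNC and siprdx1, and Actn1 -0.0018 for the interaction of H2O2 and knockdown. With only the groups compared they were Vcl -0.0088 and Actb -2.2e-05 for H2O2 in siprdx1 and Gsn 0.0036 for fluvastatin in siprdx1, and with the replicate block Actg1 0.0025 for H2O2 in siprdx1. The cause was not tested. Leaving out 1 library in turn gave 0 to 1 gene lower for H2O2 in siNC (edgeR), 0 to 1 lower for knockdown after H2O2, 0 to 1 higher and 0 to 1 lower for knockdown after H2O2 and fluvastatin, and 0 to 1 higher and 2 to 3 lower for the averaged knockdown. Effects near 0 changed sign with some omissions, and their ranges on the log2 scale follow. For H2O2 in siNC cells, Actb -0.018 to 0.055 and Actg1 -0.0047 to 0.34. For H2O2 in siprdx1 cells, Vcl -0.0076 to 0.011, Tln1 -0.099 to 0.0099, Zyx -0.20 to 0.0097, Actn1 -0.061 to 0.0098, Actb -0.068 to 0.089 and Actg1 -0.067 to 0.086. For fluvastatin in siNC cells, Elk1 -0.024 to 0.11, Tns1 -0.016 to 0.051, Tmsb4x -0.058 to 0.00095 and Arpc1b -0.11 to 0.044. For fluvastatin in siprdx1 cells, Elk1 -0.038 to 0.030, Cald1 -0.067 to 0.046, Itgav -0.053 to 0.15 and Gsn -0.061 to 0.056. For H2O2 with fluvastatin in siprdx1 cells, Tln1 -0.018 to 0.079. For knockdown without H2O2, Srf -0.061 to 0.11, Filip1l -0.034 to 0.057, Actb -0.12 to 0.0043 and Actg1 -0.090 to 0.25. For knockdown after H2O2, Flna -0.069 to 0.0064 and Tln1 -0.086 to 0.024. For the averaged knockdown, Filip1l -0.0039 to 0.026, Zyx -0.067 to 0.00058, Actb -0.0054 to 0.039 and Actg1 -0.018 to 0.095. For the interaction of H2O2 and knockdown, Srf -0.0036 to 0.17, Tln1 -0.012 to 0.098, Zyx -0.078 to 0.13, Actn1 -0.014 to 0.058 and Actb -0.094 to 0.063. For the interaction of fluvastatin and knockdown, Tln1 -0.11 to 0.0035 and Actn1 -0.055 to 0.029.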

Other observations

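The CArG box was also looked up in the promoter windows of the 11487 of 16432 tested genes that had one matched by symbol. Tested genes without a window, Actb among them, enter neither share. Of the 174 tested genes that hold a box, the 10 genes left out, 24.1% rose and 5.75% fell with fluvastatin after H2O2 in siNC, beside 14.0% and 12.8% of the 11304 without a box. In siprdx1 the shares were 23.6% and 5.17%, beside 13.0% and 12.5%. With H2O2 alone 3.45% rose and 5.75% fell in siNC, beside 2.47% and 4.44%. These shares describe the genes and carry no test.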
